A study of Danio rerio with 4 samples.

Results

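Among 64151 single cells sorted from zebrafish larvae, 64 carried RNA of a macrophage reporter or marker together with RNA of 2 epithelial genes, the combination described for metaphocytes. A cell was taken when it held at least 1 UMI (unique molecular identifier, 1 counted RNA molecule) of mpeg1.1 or mCherry, at least 1 UMI of epcam and at least 1 UMI of cldnh. Cells above the 99th percentile of UMIs of their own library were left out as likely doublets. The rule uses measured values, so the levels of these 4 genes describe the choice and are not results. The rule took 18 of 1172 cells in the 6 dpf ALK5i library and 25 of 1964 cells in the 6 dpf DMSO library (dpf, days post fertilization). At 3 dpf it took 14 of 27198 ALK5i cells and 7 of 33817 DMSO cells.

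Metaphocytes are myeloid-like cells of the zebrafish epidermis and of other surface epithelia that arise outside the blood lineage. They express mpeg1.1, a perforin-like gene used to mark macrophages, and keep epithelial adhesion genes such as epcam and the claudin cldnh. In the skin they are known to take up soluble antigens and pass them to Langerhans cells, and they are poor phagocytes.

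The 4 groups held 1 library each. In 2 of them the embryos had received 20 µM SB431542, an inhibitor of the TGF-β type I receptor ALK5 (ALK5i), from 30 to 50 hours post fertilization, and in the other two the solvent DMSO over the same hours. Whole larvae, of which wells held 40 to 50, were dissociated, and sorted for GFP driven with gata2b (gata2b GFP+ cells, 3 dpf) or for mpeg1.1-driven mCherry (mpeg1.1 mCherry+ cells, 6 dpf). Stage and sort therefore cannot be told apart, nor can treatment, embryo pool and library. No test between groups was possible, and every interval given is a 95% interval that covers counting error only.

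The deposited barcodes held 12121332 UMIs (6 dpf ALK5i), 20481201 (6 dpf DMSO), 60001771 (3 dpf ALK5i) and 97212191 (3 dpf DMSO). For comparison, clusters named by markers of macrophages or of epidermis were taken. At 6 dpf they gave 428 and 633 macrophage-like cells (ALK5i, then DMSO, as in all pairs of values here) and 145 and 192 epidermis-like cells. At 3 dpf they gave 8021 and 8684 macrophage-like and 791 and 841 epidermis-like cells. Cells meeting the rule were not counted in them. The 3 dpf libraries shared 248 barcodes, the 6 dpf libraries 3, and pairs across stages 13 to 28. Of the cells meeting the rule, 1 (3 dpf ALK5i) had a barcode also present in the other library of its stage.

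In the 6 dpf ALK5i cells the lowest, median and highest counts per cell were 0, 1 and 7 UMIs of mpeg1.1, 1, 11 and 38 of epcam, and 2, 10.5 and 30 of cldnh. In the 6 dpf DMSO cells they were 0, 1 and 5 UMIs of mpeg1.1, 6, 15 and 50 of epcam, and 4, 14 and 38 of cldnh. The 3 dpf cells sat closer to the threshold, with medians of 1 mpeg1.1, 5 epcam and 3 cldnh UMIs (ALK5i) and 1, 4 and 3 (DMSO). At least 2 UMIs of each were found in 7 and 14 of the 6 dpf cells and in 2 and 2 of the 3 dpf cells. Just outside the rule, cells that lacked only the mpeg1.1 or mCherry UMI numbered 40 and 57 at 6 dpf and 154 and 131 at 3 dpf. Those lacking only cldnh numbered 18 and 6 at 6 dpf and 127 and 192 at 3 dpf.

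The label was checked first at 3 dpf, where the data went against it. All 21 cells lay in clusters rich in epidermis markers, 19 of them in a single cluster led by icn2, cldnb, si:dkey-33i11.4, icn and agr2. None of the 21 had a UMI of grn2 or spic, which were abundant in the 6 dpf cells described below, and none had a UMI of cd74a, where a count of 0 allows up to 60.1 and 131 CPM (ALK5i, then DMSO) and macrophage-like cells of that stage had 28.6 and 32.8 CPM of cd74a. They carried the transcripts of ordinary macrophages: spi1b, which encodes the myeloid transcription factor PU.1, stood at 861 and 657 CPM (counts per 1e6 UMIs of the summed cells), against 1931 and 1728 CPM in macrophage-like and 184 and 141 CPM in epidermis-like cells. The macrophage marker mfap4 stood at 1002 and 394 CPM, while macrophage-like cells had 1454 and 1461 CPM. Epithelial RNA was present beside it: icn, a calcium-binding protein of fish epithelia, stood at 9576 and 12212 CPM, against 7075 and 5187 CPM in epidermis-like cells.

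For comparison, cells of other types at 3 dpf were picked by the same mpeg1.1 or mCherry UMI. A list of 25 macrophage genes, without grn2 and the rule's genes, summed to 8754 CPM (interval 7953 to 9615) and 7704 CPM (6608 to 8930) in the 3 dpf cells meeting the rule. In neuron-like cells with an mpeg1.1 or mCherry UMI it summed to 10271 CPM (120 cells) and 8839 CPM (83 cells), and in neuron-like cells without one to 884 and 857 CPM. In other epidermis-like cells it summed to 10761 and 8597 CPM with such a UMI and to 997 and 853 CPM without one. The cells meeting the rule in the main 6 dpf cluster described below had 8031 and 6381 CPM. This sum alone therefore does not set the 2 stages apart. An mpeg1.1 or mCherry UMI was found in 4.68% and 4.99% of epidermis-like cells, whose median depth was 1932 and 2476 UMIs, and in 5.37% and 5.05% of neuron-like cells (1691 and 2328.5 UMIs), which should lack the gene. These epidermis-like shares leave out the cells meeting the rule, which hold such a UMI by choice. With them counted in, the shares were 6.34% (4.75% to 8.25%) and 5.78% (4.31% to 7.57%), intervals that include the neuron-like shares, against 51.0% and 56.8% of macrophage-like cells. Scrublet, which scores each cell against simulated doublets, called 2 of the 14 and 4 of the 7 cells meeting the rule. Over all kept cells of the 3 dpf libraries it called 7.03% and 8.09%, and over epidermis-like cells 8.47% and 13.9%. It called 18.9% and 50.0% of the other epidermis-like cells with such a UMI, and 79.2% and 65.1% of the neuron-like cells with one. Whether doublets or free RNA made up the 3 dpf cells was not tested, and they are called here cells meeting the rule at 3 dpf, with no cell type name.

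**Figure D1:**
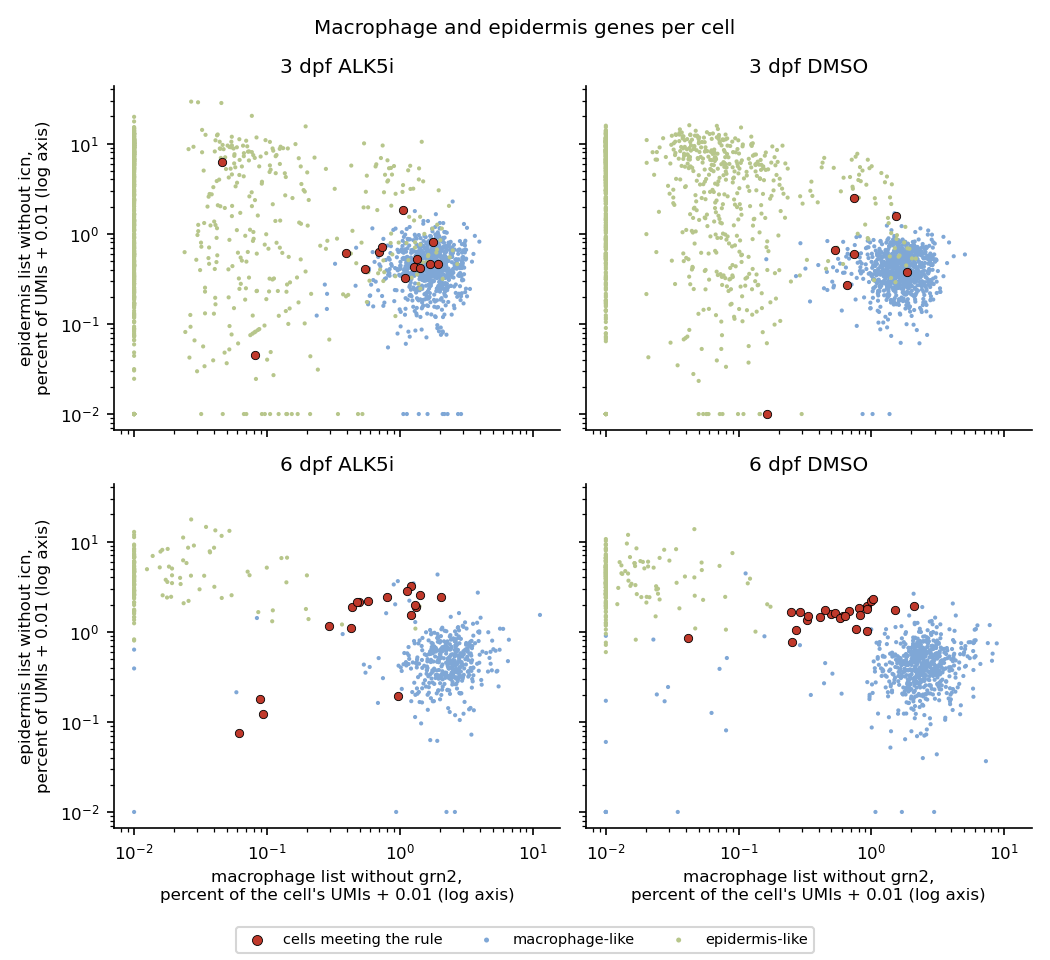
Each point is 1 cell; the x axis gives the share of its UMIs in the macrophage list without grn2 and the y axis the share in the epidermis list without icn, both in percent plus 0.01 on log axes (3 dpf macrophage-like cells drawn 1 in 10). At 6 dpf 39 of the 43 cells meeting the rule form a group apart from macrophage-like and epidermis-like cells, and at 3 dpf most lie within the macrophage-like cloud.

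At 6 dpf, 39 of the 43 cells, 14 ALK5i and 25 DMSO, lay in a single cluster of 66 cells. That cluster had 5 macrophage markers and 5 mucous, intestine or liver markers above the other clusters, so it took no name from the lists. The other 4 cells were all ALK5i. Of these, 3 lay in a single hepatocyte-like cluster with 72015, 26800 and 29118 UMIs, of which 2624, 1039 and 1272 were fabp10a, a liver fatty acid-binding protein. The fourth lay in a neural progenitor cluster with 27471 UMIs. Together these 4 held 155404 of the 268842 UMIs of the 18 ALK5i cells. Scrublet called none of the 43, but it called only 5 of 1184 (0.422%) and 4 of 1984 (0.202%) kept cells at 6 dpf. That 0 therefore says little about doublets. Because the 4 cells weigh on every ALK5i sum, levels are given for the 39 cells of the main cluster, and with all 43 only where stated. Setting the 4 apart was decided after their values had been seen.

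At 6 dpf an mpeg1.1 or mCherry UMI occurred in 0.690% (1 of 145) and 0.521% (1 of 192) of epidermis-like cells, and in 1.49% (3 of 202) and 0.256% (1 of 391) of neuron-like cells. No cell meeting the rule lay in a neuron-like cluster in any library. That count of 0 allows up to 1.81% and 0.939% of neuron-like cells at 6 dpf, and 0.165% and 0.224% at 3 dpf. The rule took 1.54% and 1.27% of kept cells at 6 dpf, and 0.0515% and 0.0207% at 3 dpf, so the 0 says little.

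The main-cluster cells had genes that neither comparison type shared. The gene grn2 (ENSDARG00000088641), 1 of the granulin genes, stood at 43381 CPM (interval 42177 to 44610) and 38071 CPM (37276 to 38879), against 4.19 and 5.74 CPM in macrophage-like cells and 68.6 and 76.8 CPM in epidermis-like cells. All 39 cells held it, with 121, 301.5 and 714 UMIs per cell (lowest, median, highest) in the ALK5i cells and 5, 290 and 1688 in the DMSO cells. Its paralog grn1 ran the other way, at 820 and 577 CPM in the main-cluster cells and 6165 and 6419 CPM in macrophage-like cells. The transcription factor gene spic (ENSDARG00000012435), a relative of PU.1 known in mouse from red pulp macrophages, stood at 494 and 1013 CPM, and at 0 and 0.295 CPM in macrophage-like cells. It was seen in 12 of 14 and 25 of 25 cells. Over all 18 ALK5i cells meeting the rule, spic stood at 223 CPM.

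Of the 594 genes with at least 20 UMIs in both sets of main-cluster cells, 119 (20.0%) were above both comparison types. Such a gene was at least 2-fold above the higher of macrophage-like and epidermis-like cells in both libraries, with 20 CPM added to each level. With all 43 cells, under the same minimum, 89 of 845 genes (10.5%) were above both. The UMI minimum was set on the cells meeting the rule alone, which favours genes high in them. Neither share is therefore one over all genes. Leaving out the rule's genes, the lists of 118 and 88 genes shared 73. The main cluster was drawn from these same genes, so its leading genes are a description.

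Other genes at the top of that list were opn1sw2, the blue cone opsin of the retina, at 1120 and 1249 CPM, while macrophage-like cells had 0.986 and 1.47 CPM and epidermis-like cells 5.61 and 4.16 CPM. It was found in all 39 cells. The gene pou2f3, whose mouse counterpart specifies tuft cells of the gut and airway, stood at 476 and 432 CPM, with 0.493 and 0 CPM in macrophage-like cells and 6.86 and 1.39 CPM in epidermis-like cells. The cytochrome gene cyb561a3a stood at 934 and 1044 CPM, the nucleoside diphosphate kinase gene nme2b.2 at 890 and 843 CPM, and the cadherin gene cdh28 at 273 and 371 CPM. The actin regulator gene wasa, a relative of the Wiskott-Aldrich gene, stood at 494 and 476 CPM and the membrane adaptor gene pag1 at 441 and 411 CPM. None of cyb561a3a, nme2b.2, cdh28, wasa and pag1 exceeded 19.2 CPM in macrophage-like or epidermis-like cells. The unnamed loci si:ch73-359m17.7 (1358 and 1498 CPM) and si:ch73-343g19.4 (1340 and 1450 CPM) were at 0 CPM in macrophage-like cells of both libraries.

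Picked from the same 119 genes after their values were seen, il22ra2, which encodes the soluble decoy receptor of interleukin 22, stood at 238 and 262 CPM and was seen in 6 of 14 and 14 of 25 cells. Macrophage-like cells of both libraries had 0 CPM of il22ra2. The chemokine receptor gene ccr9a stood at 1587 and 2061 CPM, while macrophage-like cells had 304 and 307 CPM and epidermis-like cells 14.3 and 6.01 CPM. The peroxiredoxin gene prdx1 stood at 11980 and 10775 CPM, while macrophage-like cells had 3986 and 4290 CPM.

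Of the macrophage list, 20 of 27 genes were lower in the main-cluster cells than in macrophage-like cells by at least 2-fold in both libraries and 3 (grn2, cd74a and cd74b) were higher, with a median log2 ratio of -2.27. Of all 21740 genes with a UMI, 3.11% were lower and 2.38% higher, with a median of -0.01. Those shares, also given for the other lists, take in genes under 20 CPM, which cannot pass 2-fold with 20 CPM added. The macrophage-like clusters were named by genes of this same list, so part of the difference was set by the choice of comparison cells. The receptor gene csf1ra, through which macrophages receive survival signals, had 0 UMIs in the 39 cells, which allows up to 26.4 and 13.1 CPM, while macrophage-like cells had 118 and 125 CPM. The scavenger receptor gene marco and the cytokine gene tnfa were likewise at 0, against 480 and 562 CPM (marco) and 803 and 598 CPM (tnfa) in macrophage-like cells. The gene spi1b stood at 17.6 and 4.37 CPM, while macrophage-like cells had 1604 and 1921 CPM, and was held by 1 of 14 and 1 of 25 cells. The marker mfap4 stood at 0 and 4.37 CPM, against 1263 and 1275 CPM, and ptprc, which encodes the leukocyte antigen CD45, at 8.82 and 0 CPM, against 220 and 255 CPM. Other markers with no UMI in the 39 cells were csf1rb, mpeg1.2, cxcr3.2, ccl34b.1, c1qa, c1qb and p2ry12.

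**Figure D2:**
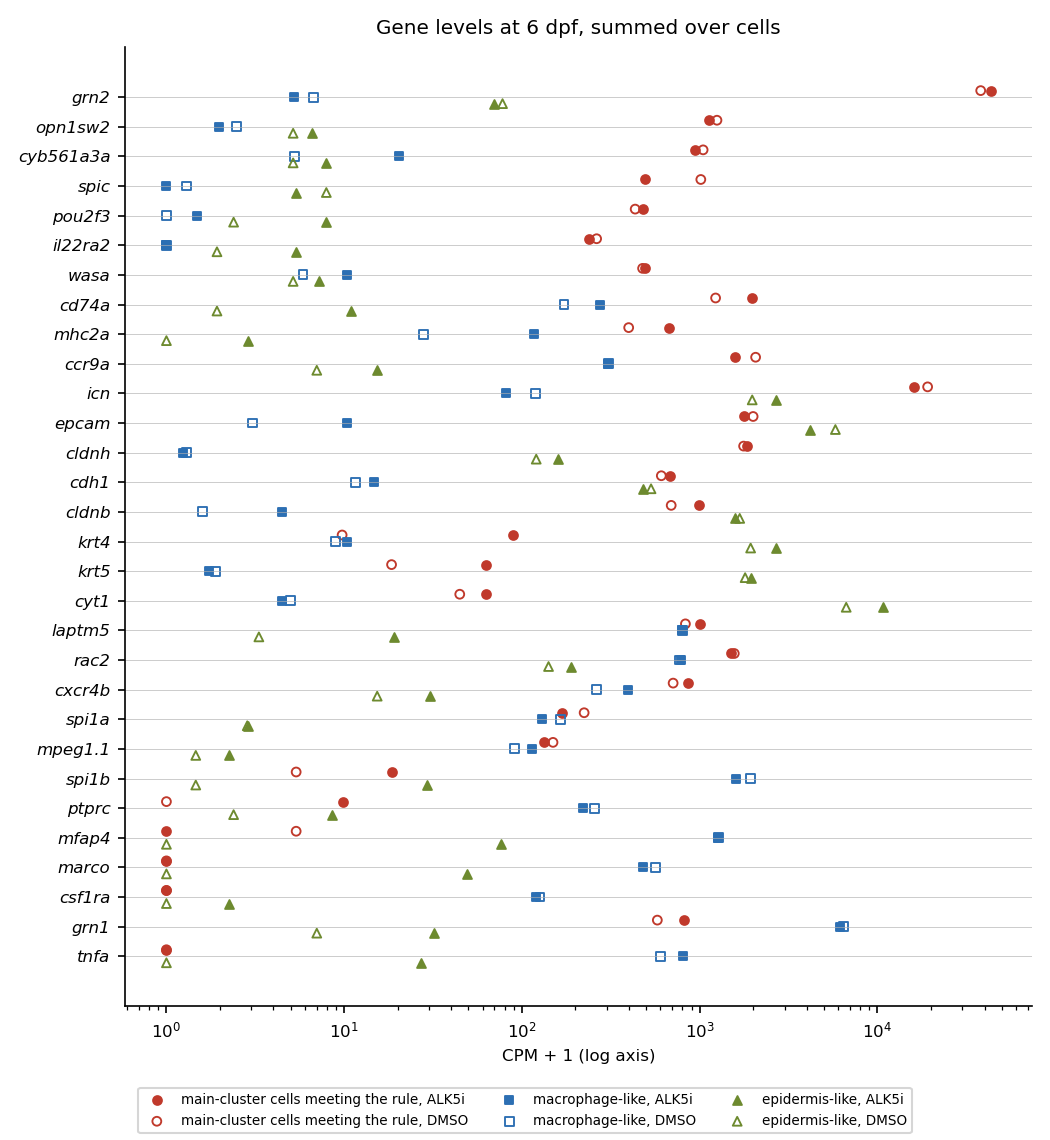
Each row is a gene and the x axis its level in CPM + 1 on a log axis, summed over the 39 main-cluster cells meeting the rule (circles), macrophage-like cells (squares) and epidermis-like cells (triangles) at 6 dpf, filled for ALK5i and open for DMSO, with no replicates. The genes from grn2 to ccr9a lie to the right in the circles, and those from spi1b to tnfa lie to the right in the macrophage-like squares.

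Genes of uptake and digestion were lower still. In the phagocytic and scavenger list, 16 of 24 genes were lower than in macrophage-like cells and 0 higher, with a median log2 ratio of -3.04. Of all genes with a UMI 3.11% were lower and 2.38% higher. Among genes at 200 CPM or more in macrophage-like cells, 33.7% were lower in the 43 cells meeting the rule. The genes mfap4, marco, havcr1, c1qa, c1qb and c1qc are in the macrophage list too, so the lists overlap. The phagocytic list summed to 414 and 454 CPM, against 15841 and 17778 CPM. The lysosomal protease gene ctsla stood at 106 and 157 CPM, against 4178 and 5115 CPM. The apolipoprotein gene apoeb stood at 61.7 and 175 CPM, against 1767 and 1850 CPM. The lipid carrier gene fabp11a stood at 141 and 48.0 CPM, against 12521 and 11841 CPM. Among the 10 genes furthest below macrophage-like cells were also the chemokine gene cxcl19 (0 and 0 CPM, against 3974 and 4968 CPM), the galectin gene lgals2a (8.82 and 4.37 CPM, against 2249 and 1854 CPM) and the proteoglycan gene srgn (8.82 and 4.37 CPM, against 1660 and 1799 CPM). With all 43 cells the phagocytic list stood at 13246 CPM in the ALK5i cells, of which apoc1, an apolipoprotein also made by liver, was 11278 CPM.

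Summed as a list, general leukocyte genes of the main-cluster cells stood near the macrophage-like level. The leukocyte list summed to 9203 CPM (8653 to 9779) and 9840 CPM (9438 to 10255), against 8632 and 8420 CPM in macrophage-like and 1383 and 1036 CPM in epidermis-like cells. Of its 26 genes 5 were higher and 5 lower than in macrophage-like cells, and 17 were higher and 1 lower than in epidermis-like cells, where 5.18% of all genes were higher and 2.17% lower. The small GTPase gene rac2, used mainly in blood cells, stood at 1490 and 1564 CPM, while macrophage-like cells had 780 and 767 CPM. The actin-capping gene capgb stood at 1428 and 1795 CPM, against 374 and 418 CPM, and cyba, a subunit of the phagocyte NADPH oxidase, at 1261 and 1096 CPM, against 733 and 631 CPM. The lysosomal gene laptm5 stood at 996 and 830 CPM, against 791 and 796 CPM. These named genes all lay above the macrophage-like level, while ptprc, given above, was among the 5 lower. Of the pair of PU.1 genes, which this list does not hold, spi1a stood at 167 and 223 CPM, against 129 and 164 CPM. The other, spi1b, was nearly absent as given above. With all 43 cells the leukocyte list of the ALK5i cells was 4713 CPM. Of its genes 0 were then higher and 6 lower than in macrophage-like cells in both libraries, with a median log2 ratio of -0.27.

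Antigen presentation genes were above macrophage-like cells in part. Of 27 genes, 6 were higher and 2 lower in the main-cluster cells, with a median log2 ratio of 0.42. Of all genes with a UMI, 2.38% were higher and 3.11% lower. Among the 594 genes with at least 20 UMIs in both sets of these cells, 119 (20.0%) were above both comparison types. The 2.38% therefore understates the share among genes with enough UMIs. Of the 27 list genes, 9 had that many. Against epidermis-like cells 12 were higher and 0 lower, where 5.18% of all genes were higher and 2.17% lower. The genes cd74a, cd74b, ctss2.1 and ctss2.2 are in the macrophage list too, so these lists overlap. The invariant chain gene cd74a stood at 1975 CPM (1725 to 2251) and 1227 CPM (1088 to 1379), against 273 and 171 CPM in macrophage-like cells, and its paralog cd74b at 1128 and 734 CPM, against 282 and 193 CPM. The class II gene mhc2a stood at 670 and 397 CPM, against 115 and 27.0 CPM. The protease gene ctss2.2, whose product trims the invariant chain, stood at 2151 and 1961 CPM, against 1167 and 970 CPM, while ctss2.1 stood at 714 and 970 CPM, against 3909 and 4167 CPM. The transcription factor gene batf3, needed by conventional dendritic cells in mouse, stood at 106 and 91.7 CPM, against 4.68 and 7.07 CPM. The dendritic cell receptor genes flt3 and ccr7 had 0 UMIs in the 39 cells, and ccr7 had none in macrophage-like cells. Not every cell carried the class II genes: cd74a had 0, 15.5 and 39 UMIs per ALK5i cell and 0, 9 and 50 per DMSO cell, and was absent from 1 of 14 and 7 of 25 cells.

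**Figure D3:**
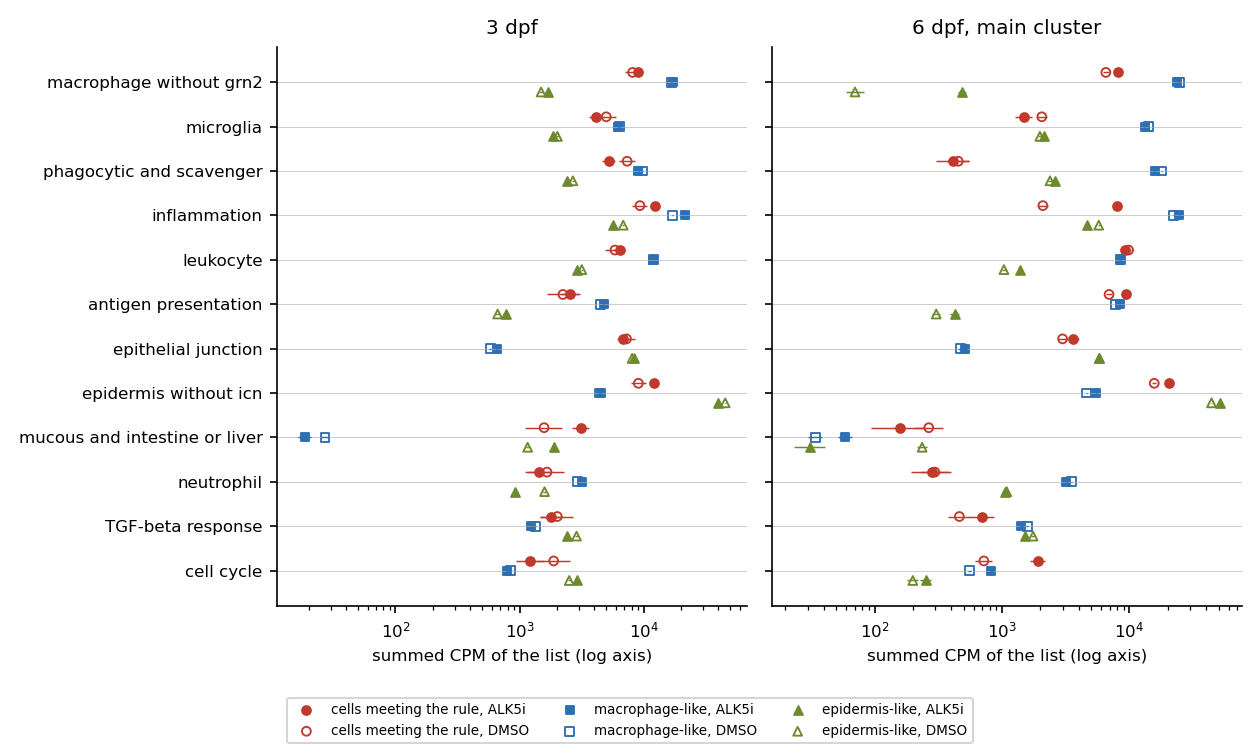
Each row is a gene list and the x axis its summed CPM on a log axis with 95% counting intervals, at 3 dpf (left) and 6 dpf (right), for cells meeting the rule (circles; all 21 at 3 dpf, the 39 of the main cluster at 6 dpf), macrophage-like cells (squares) and epidermis-like cells (triangles), filled for ALK5i and open for DMSO. At 6 dpf the main-cluster circles lie with the macrophage-like squares in the leukocyte and antigen presentation rows and below them in the phagocytic and scavenger row (414 and 454 CPM, against 15841 and 17778 CPM).

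On the epithelial side, the junction list stood, by its medians, between the comparison types and keratin genes stood far below the epidermis-like level. The cadherin gene cdh1 stood at 679 and 607 CPM, while macrophage-like cells had 13.8 and 10.6 CPM and epidermis-like cells 477 and 531 CPM. The claudin gene cldnb stood at 987 and 690 CPM, against 1579 and 1678 CPM in epidermis-like cells, and the junction gene f11r.1 at 555 and 581 CPM, against 207 and 245 CPM. Over the epithelial junction list, 10 of 26 genes were higher and 0 lower than in macrophage-like cells, where 2.38% of all genes were higher and 3.11% lower. Against epidermis-like cells 1 was higher and 7 lower, where 5.18% of all genes were higher and 2.17% lower. The median log2 ratios of the list were 0.86 and -0.59. The gene icn stood at 16106 CPM (15376 to 16862) and 19143 CPM (18580 to 19718), against 80.6 and 118 CPM in macrophage-like and 2669 and 1973 CPM in epidermis-like cells. The actin-binding gene pfn1 stood at 19650 and 15155 CPM, against 8962 and 8076 CPM in epidermis-like cells. Of the 26 epidermis genes, 21 were lower than in epidermis-like cells and 1, icn, was higher, with a median log2 ratio of -3.14. Of all genes, 2.17% were lower and 5.18% higher there. The epidermis-like clusters were named by genes of this same list, so part of the difference was set by that choice.

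The keratin genes krt4 and krt5 stood at 88.2 and 8.73 CPM and at 61.7 and 17.5 CPM, against 2699 and 1933 CPM and 1952 and 1800 CPM in epidermis-like cells. The keratin genes krt91, cyt1, cyt1l, krt15 and krtt1c19e were among the 10 genes furthest below epidermis-like cells, and cyt1 stood at 61.7 and 43.7 CPM, against 10743 and 6668 CPM. The basal cell regulator tp63 stood at 8.82 and 0 CPM, against 52.4 and 47.2 CPM. Many of these keratin genes, the pairs cd74a and cd74b, ctss2.1 and ctss2.2, and others are paralogs. How far their reads were split between copies was not measured, so the level of each copy is uncertain. Of genes at 200 CPM or more in epidermis-like cells of both libraries, 123 of 359 (34.3%) were at least 2-fold lower in the 43 cells meeting the rule. Of genes at that level in macrophage-like cells, 190 of 564 (33.7%) were lower.

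Markers of other cell types were low in the 39 cells. The neutrophil list summed to 282 and 297 CPM, while macrophage-like cells had 3206 and 3513 CPM, with mpx and lyz at 0 UMIs. The neuron list summed to 52.9 and 26.2 CPM, the erythroid list to 0 and 4.37 CPM and the ionocyte list to 282 and 262 CPM. The mucous, intestine and liver list summed to 159 and 266 CPM in the main-cluster cells, and to 51804 CPM over all 18 ALK5i cells meeting the rule. The list of TGF-β response genes, which includes the pathway's receptors, feedback inhibitors and Id genes, summed to 696 and 463 CPM, while macrophage-like cells had 1418 and 1576 CPM and epidermis-like cells 1503 and 1752 CPM. Its most abundant member was id2b, a dimerization inhibitor of helix-loop-helix factors, at 370 and 118 CPM, while macrophage-like cells had 17.5 and 3.54 CPM. Of the genes encoding the drug's target ALK5, tgfbr1b had 0 UMIs and tgfbr1a stood at 8.82 and 13.1 CPM, within the 26.4 and 13.1 CPM that a count of 0 allows.

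**Figure D4:**
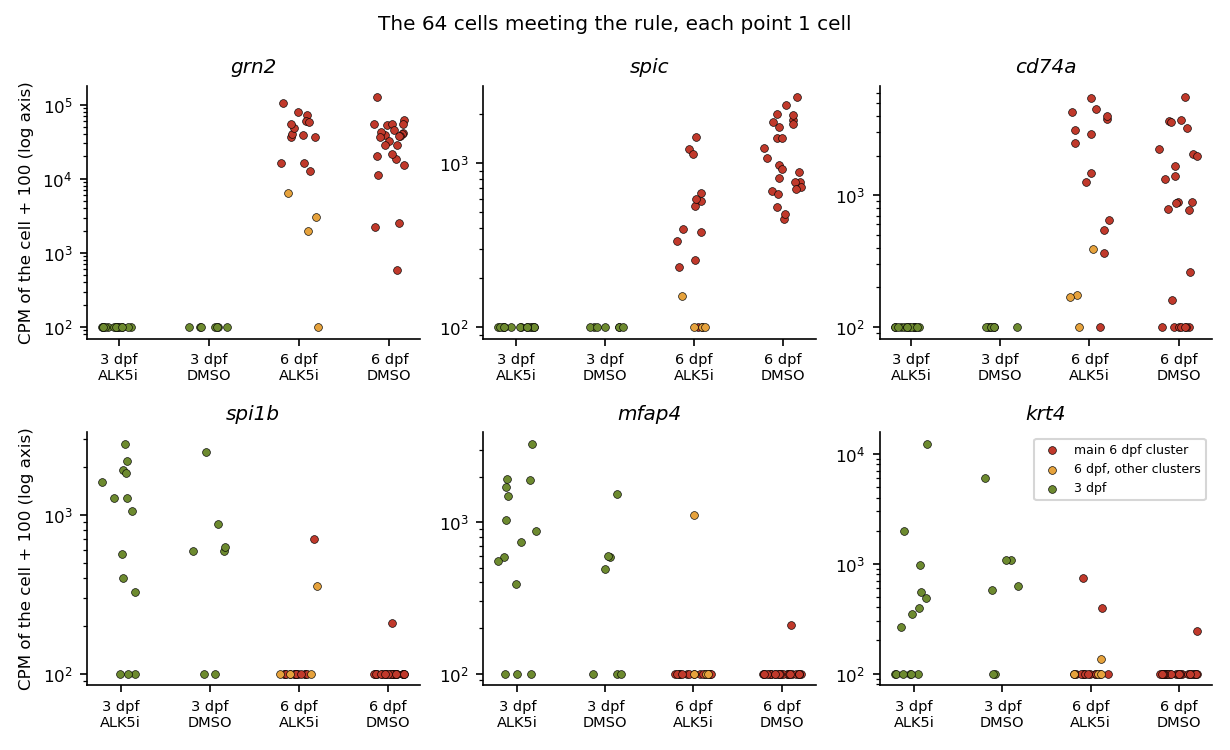
Each point is 1 of the 64 cells, placed by library with ALK5i left of DMSO within each stage; the y axis is the cell's level in CPM + 100 on a log axis, red for the main 6 dpf cluster, orange for other 6 dpf clusters and green for 3 dpf. grn2, spic and cd74a are at 0 in all 21 cells at 3 dpf, where 16 cells have spi1b and 15 have mfap4. Of the 39 main-cluster cells at 6 dpf, 39 have grn2, 37 spic, 31 cd74a, 2 spi1b and 1 mfap4.

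The share of kept cells that met the rule was 1.54% (0.913% to 2.42%) with ALK5i and 1.27% (0.825% to 1.87%) with DMSO at 6 dpf, a difference of 0.263 percentage points (-0.559 to 1.23) that was not detectable at this depth. When each cell was thinned to 2000 UMIs and shallower cells (260 and 458) were left out, the shares were 0.439% (4 of 912) and 0.664% (10 of 1506), a difference of -0.225 points (-0.841 to 0.522). Without thinning and with the main-cluster cells meeting the rule alone, the shares were 1.19% (14 of 1172) and 1.27% (25 of 1964). That difference was -0.0784 points (-0.847 to 0.821). Counted by the whole cluster, members of the rule or not, it held 33 of 1172 cells (2.82%) and 33 of 1964 cells (1.68%), a difference of 1.14 points (0.0890 to 2.35). Of those, 8 ALK5i cells and 1 DMSO cell had at least 10 UMIs of tm4sf4, an intestine and liver gene that no cell meeting the rule in that cluster carried. The clustering used 2000 variable genes, and genes that differ between the libraries were not removed from them. At 3 dpf the shares were 0.0515% (0.0281% to 0.0864%) and 0.0207% (0.00832% to 0.0426%), a difference of 0.0308 points (0.000474 to 0.0673), and 0.0872% and 0.0195% when thinned. Counting only those in the cluster that held most of them, 12 and 7 cells, the difference was 0.0234 points (-0.00559 to 0.0581), an interval that includes 0.

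Within the main-cluster cells at 6 dpf, 28 of 594 genes (4.71%) were at least 2-fold higher with ALK5i than with DMSO and 5 (0.842%) were lower, with a median log2 ratio of 0.07 over all 594. The chemokine gene ccl20a.3 (ENSDARG00000101040) stood at 3253 CPM with ALK5i and 620 CPM with DMSO, a log2 ratio of 2.35 (2.08 to 2.64). It had 1, 22 and 67 UMIs per ALK5i cell and 0, 3 and 33 per DMSO cell (lowest, median, highest), so the cells of both libraries overlapped. In macrophage-like cells ccl20a.3 stood at 284 CPM with ALK5i and 127 CPM with DMSO. The fish chemokine gene ccl35.1 stood at 3279 CPM with ALK5i and 764 CPM with DMSO, a log2 ratio of 2.07, with 0, 25 and 82 UMIs per ALK5i cell and 0, 4 and 28 per DMSO cell. The activation marker gene cd83 stood at 458 and 114 CPM, a log2 ratio of 1.84, and was seen in 12 of 14 and 13 of 25 cells. The unnamed gene si:ch73-281n10.2 stood at 379 and 87.4 CPM. The chromatin gene hmgn2 stood at 2089 and 507 CPM, but 1 ALK5i cell held 215 of the 237 UMIs, and the medians were 2 UMIs per ALK5i cell and 4 per DMSO cell.

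Of the 5 genes lower with ALK5i, gstp1 had the lowest ratio. The glutathione transferase gene gstp1 (ENSDARG00000104068) stood at 4337 CPM with ALK5i and 15985 CPM with DMSO, a log2 ratio of -1.88 (-2.02 to -1.74). It had 0, 5 and 255 UMIs per ALK5i cell and 10, 162 and 271 per DMSO cell, so a few ALK5i cells reached the DMSO level. In macrophage-like cells gstp1 stood at 1246 and 1531 CPM. The sulfotransferase gene sult6b1 stood at 573 and 1743 CPM (log2 ratio -1.57), mgst1.2, a microsomal glutathione transferase, at 256 and 581 CPM (-1.12), and ethe1, a mitochondrial enzyme of sulfide breakdown, at 379 and 786 CPM (-1.01). The fifth was spic, at 494 and 1013 CPM (log2 ratio -1.01), with 0, 2.5 and 17 UMIs per ALK5i cell and 4, 8 and 16 per DMSO cell. In the main-cluster cells grn2, icn and opn1sw2 did not reach 2-fold, as their levels above show. Over all 18 and 25 cells meeting the rule, gstp1 stood at 2418 and 15985 CPM (log2 ratio -2.71). There spic stood at 223 and 1013 CPM (-2.09).

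**Figure D5:**
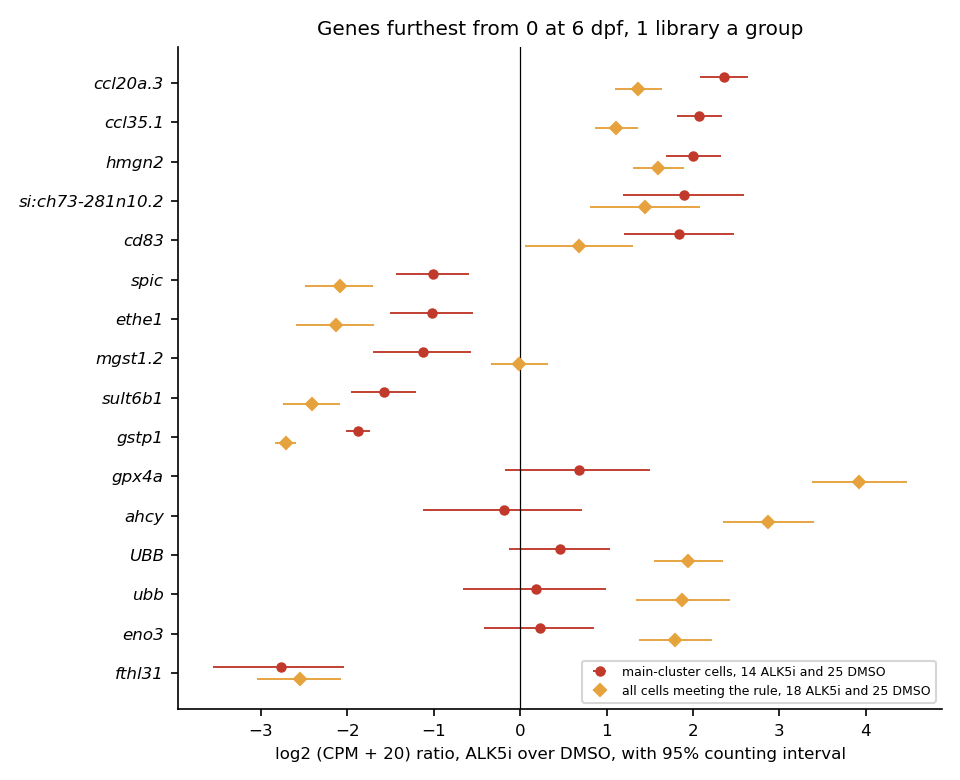
The x axis is the log2 ratio of ALK5i over DMSO (CPM + 20) at 6 dpf with 95% counting intervals, for the 14 ALK5i and 25 DMSO main-cluster cells (circles) and for all 18 and 25 cells meeting the rule (diamonds), 1 library a group. In the main-cluster cells ccl20a.3 (2.35) lies furthest right of the genes named by that comparison, and gpx4a, ahcy, UBB, ubb and eno3 are beyond 1 only when all cells meeting the rule are summed.

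Summed by list, inflammation genes stood at 8040 CPM with ALK5i and 2092 CPM with DMSO in the main-cluster cells, a log2 ratio of 1.93 (1.77 to 2.09). Of the 5 inflammation genes with enough UMIs in both libraries, 2 passed 2-fold, ccl20a.3 and ccl35.1. Of the list's 912 UMIs with ALK5i, ccl20a.3 held 369 and ccl35.1 372, and of its 479 with DMSO they held 142 and 175. Both genes had been picked by this same comparison, so the list ratio is largely theirs. The list of immediate early and heat shock genes, which respond to handling and dissociation, stood at 13064 and 5927 CPM (log2 ratio 1.14, 1.03 to 1.24), and in macrophage-like cells at 17043 and 10635 CPM. Its part in the chemokine difference was not tested. Antigen presentation genes stood at 9353 and 6918 CPM (0.43, 0.32 to 0.55), epithelial junction genes at 3632 and 2987 CPM (0.28), leukocyte genes at 9203 and 9840 CPM (-0.10) and epidermis genes at 36646 and 34796 CPM (0.07). TGF-β response genes stood at 696 and 463 CPM (0.57, 0.14 to 0.99), but only id2b of the 32 had enough UMIs to be read alone, and without it the list stood at 326 CPM (230 to 450) with ALK5i and 345 CPM (273 to 430) with DMSO. Cell cycle genes stood at 1913 and 721 CPM (1.38), with 1 of 22 genes having enough UMIs to be read alone. Over all 18 and 25 cells meeting the rule, 37 genes of 845 (4.38%) were higher and 142 (16.8%) lower, with a median of -0.39. There gpx4a (1674 and 91.7 CPM) and ahcy (952 and 114 CPM) were among the highest. In the main cluster gpx4a stood at 159 and 91.7 CPM and ahcy at 97.0 and 114 CPM.

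At 3 dpf few genes could be read alone. Of 182 genes with at least 20 UMIs in both libraries, 3 (1.65%) were above both comparison types: the rule's own cldnh, si:dkey-33i11.4 (2805 and 1488 CPM, against 557 and 466 CPM in epidermis-like cells) and agr2, a secretory protein gene of mucous cells (2644 and 1226 CPM, against 588 and 478 CPM). The genes si:dkey-33i11.4 and agr2 were also leading genes of the epidermis-like cluster that held 19 of the 21 cells. The epidermis-like level pools that cluster with another, of 303 and 407 cells, led by krtt1c19e. Whether the excess was particular to the cells meeting the rule was not tested. Neither gene was among the 89 of 845 genes (10.5%) above both types over all 43 cells at 6 dpf. As the 3 dpf list held 2 genes without the rule's own, their absence says little. With ALK5i 5 genes (2.75%) were higher and 6 (3.30%) lower, with a median of -0.09. The macrophage list stood at 9035 and 8141 CPM (log2 ratio 0.15, -0.10 to 0.40), the epidermis list at 21696 and 21273 CPM (0.03, -0.13 to 0.19), and the TGF-β response list at 1803 and 2013 CPM (-0.16, -0.68 to 0.38). Those differences were not detectable at this depth. The gene gstp1 stood at 3386 CPM with ALK5i and 1532 CPM with DMSO in these 14 and 7 cells (log2 ratio 1.13, 0.61 to 1.69). In the 2 and 2 cells with at least 2 UMIs of each rule gene the ratio was -2.17, so its direction at 3 dpf depended on the rule's minimum.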

How the data were processed

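Single-cell RNA was measured with the 10x Genomics Chromium 3' v4 kit, per the labels' protocols, in 4 libraries of sorted cells from whole zebrafish larvae, 1 library per group. The deposited values are raw counts of UMIs per gene and cell barcode, which the authors produced in Cell Ranger (9.0.0 in the headers of the files), while the submitters' processing notes give 9.0.1 and the build GRCz11. Aligner and cell-calling settings are not given in the sources used here. Each library lists 27758 features, 13 of them without an Ensembl identifier. Genes are given by the files' symbols.

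Cells were kept with at least 500 UMIs, 300 genes and at most 10% mitochondrial UMIs. Cells above the 99th UMI percentile of their library were left out of the members and comparison types. Scrublet calls (scanpy 1.11.5, 0.4% expected per 1000 cells) were recorded and removed only as an alternative. Each stage was clustered without batch correction (2000 variable genes, 30 principal components, 15 neighbours, Leiden resolution 1, leidenalg 0.10.2, igraph 0.11.9, scikit-learn 1.9.0). A cluster took the class with most markers, at least 3, from lists of which 530 of 543 distinct symbols matched. It took no name when another class tied or had more markers among its 10 leading genes. Unnamed clusters were left out of the comparison types. Among them were 3 dpf clusters of 1903 and 1730 cells and of 526 and 760 cells, with 16 macrophage markers each. A 6 dpf cluster of 31 and 47 cells with 13 epidermis markers was left out too. UMIs were summed over cells and scaled to CPM. Ratios are log2 of CPM + 20, called at 2-fold, for genes with at least 20 UMIs in both libraries where stated, and a list's median is that of the log2 mean ratio of both libraries. Intervals are exact Poisson (levels) and exact binomial Clopper-Pearson (shares and ALK5i over DMSO ratios), and 0 counts are bounded by 3 counts. Those of differences between shares are Newcombe intervals, built from Wilson score limits, and are not exact. Python 3.11.15, numpy 2.4.6, scipy 1.17.1, pandas 2.3.3 and matplotlib 3.10.9 were used. The fold calls were checked on simulated counts, which held counting error only and no spread between cells or libraries.

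The members, gene lists and comparisons were chosen with earlier results of these data known. Named genes are the rule's 4 genes, the 15 furthest above both comparison types, the 5 highest and 5 lowest ALK5i over DMSO ratios per stage, up to 4 list genes with most UMIs, defining markers at 0, and the 10 genes furthest below each comparison type. Further list genes were named after their values had been seen, and the lists without grn2, icn or id2b were made then, as was the epidermis-like share with the members counted in. Alternatives changed the cell filters, the rule's UMI minimum, the upper UMI limit, doublet calls, thinning depth, comparison cells, weighting of cells, the CPM added, the UMI minimum per gene and the scaling.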

Additional observations from a re-analysis of the deposited data

How the results depend on the processing

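With 1 library in each group, counting intervals leave out the spread between larvae, sorts and libraries. No paired analysis was possible because each group had 1 library, and no library could be left out. Depth limits the rule itself: a cell needs UMIs of 3 genes to be seen, and most cells at 3 dpf held 1 UMI of mpeg1.1. Of the main values under the alternatives, 126 stayed within the counting interval or within 1.5 times, 72 moved and 8 changed sign. Of the single genes named by the treatment comparison, 122 stayed, 33 moved and 5 changed sign. Where no cause is stated below, the cause was not tested. Lists are log2 ratios, list levels being the mean of both libraries over macrophage-like (leukocyte, macrophage) or epidermis-like cells (epidermis, junction).

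With at least 2 UMIs of each rule gene, the rule took 2 and 2 cells at 3 dpf and 7 and 14 at 6 dpf. Levels were then -0.69 (macrophage), -1.49 (epidermis) and -1.05 (junction) at 3 dpf, against -0.98, -1.18 and -0.22, and -0.22 (leukocyte) and -0.99 (epidermis) at 6 dpf, against -0.32 and -1.06. Genes above both types numbered 0 at 3 dpf and 47 at 6 dpf, and genes lower with ALK5i 2 and 46. ALK5i over DMSO was 1.27 (macrophage), -1.07 (epidermis) and -1.65 (TGF-β) at 3 dpf and -0.72 (leukocyte), -1.08 (macrophage) and -0.85 (epidermis) at 6 dpf. At 3 dpf gstp1 became -2.17 and agr2 -1.27. With no upper UMI limit the 3 dpf DMSO cells numbered 11.

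Without Scrublet calls 3 cells remained in 3 dpf DMSO, levels were -1.22 (leukocyte), -1.20 (macrophage) and -0.62 (epidermis), 1 gene was above both types, 1 was higher with ALK5i, and ALK5i over DMSO was -1.08 (epidermis), 0.44 (TGF-β), -0.21 (agr2) and 0.17 (si:ch211-222l21.1). Thinning to 1000 UMIs gave shares of 0% and 0% at 3 dpf and 0.0921% and 0.223% at 6 dpf. Unthinned, the 6 dpf shares were 1.54% and 1.27%.

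With comparison cells taken by genes and not by clusters, levels were -0.93 (epidermis) and 0.042 (junction) at 3 dpf and 0.53 (macrophage) and -0.49 (epidermis) at 6 dpf. In the main cluster, an alternative chosen after seeing the data, levels were -1.39 (epidermis, 3 dpf), 0.16 (leukocyte), 0.98 (macrophage), -0.48 (epidermis) and -0.82 (junction) at 6 dpf. There 3 genes were higher with ALK5i at 3 dpf and 5 lower at 6 dpf, and ALK5i over DMSO was -0.40 (epidermis, 3 dpf), -0.10 (leukocyte), 0.21 (macrophage), 0.075 (epidermis), 0.28 (junction), 0.43 (antigen presentation), 1.93 (inflammation) and -0.19 (ahcy). The 6 dpf values with all cells were -1.06, -0.85, -1.07, -0.11, -0.60, 1.18 and 2.86. As a mean over cells, levels were -0.44 (junction, 3 dpf), 0.057 (leukocyte), 0.86 (macrophage), -0.57 (epidermis) and -1.17 (junction). ALK5i over DMSO was then -0.41 (epidermis, 3 dpf), -0.31 (leukocyte), 0.10 (macrophage), -0.27 (epidermis), 0.16 (junction), 0.27 (antigen presentation) and 1.95 (inflammation), with 23 genes lower. The macrophage levels of 0.53, 0.98 and 0.86 include grn2, which held most of the list's UMIs in the main-cluster cells. Leaving out grn2 took that list from 5847 to 926 UMIs with ALK5i and from 10212 to 1495 with DMSO. Of the 26 genes left, 20 were at least 2-fold below macrophage-like cells in both libraries and 2 were above. Their median log2 ratio was -2.50.

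With no UMI minimum per gene, 66 and 189 genes were above both types at 3 and 6 dpf, 3756 and 795 higher with ALK5i and 1887 and 703 lower, most at 1 or a few UMIs. With a minimum of 10, 154 genes were above both at 6 dpf. The median log2 ratio of all genes over all members at 6 dpf was -0.39. Scaled by the median ratio over genes, 47 were lower with ALK5i, and ratios were -0.67 (leukocyte), -0.46 (macrophage), -0.68 (epidermis), 0.28 (junction), -0.21 (antigen presentation), 1.57 (inflammation) and 1.16 (TGF-β).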

Other observations

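The main 6 dpf cluster held 27 further cells that did not meet the rule, 19 ALK5i and 8 DMSO, and the splits given here were made after their values had been seen. Of these, 14 (10 ALK5i and 4 DMSO) had at least 50 grn2 UMIs, up to 502, and 13 of them lacked an mpeg1.1 or mCherry UMI. A group of 9 (8 ALK5i and 1 DMSO) had at least 10 UMIs of tm4sf4, a tetraspanin-like gene of the intestine and liver list, with 18 to 192 UMIs per cell. Of those 9, 7 lacked cldnh, 1 had a grn2 UMI, 4 had spic, 4 had il22ra2, and 0 had pou2f3. None of the 39 cells meeting the rule in that cluster had a tm4sf4 UMI.

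Of the transcripts that mark the 6 dpf cells, grn2 and spic were rare at 3 dpf. The gene pou2f3 was not confined to 6 dpf, with 284 UMIs in 228 cells at 3 dpf and 263 UMIs in 69 cells at 6 dpf. Of the 3 dpf cells with pou2f3, 32 lay in the cluster that held 19 of the 21 cells meeting the rule. Over 61015 cells at 3 dpf, grn2 UMIs were found in 82 cells (139 UMIs) and spic UMIs in 15 cells (17 UMIs), against 119 cells (19037 UMIs) and 63 cells (441 UMIs) of 3136 at 6 dpf. A single 3 dpf DMSO cell held 56 of those grn2 UMIs, with 3 of spic, 8 of il22ra2, 6 of pou2f3, 3 of opn1sw2, 16 of icn, 7 of epcam and 12 of cldnh. It had 0 UMIs of mpeg1.1 and mCherry, so it did not meet the rule, lay in a neuron-like cluster with 9 UMIs of the neuronal gene elavl3, and was called by Scrublet at 7454 UMIs.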
